A study of Mus musculus with 22 samples.

Results

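Interferon-stimulated genes are the genes that a cell switches on after an interferon has bound its receptor. A list of 41 such genes, chosen by name, was followed through single-cell RNA profiles of mouse tissue and of cells sorted from mouse blood. Of the 41, 40 were among the 31053 genes of the count tables, and Mx2 was not analysed here. The members comprised ISG15 and IFIT effectors (Isg15, Ifit1, Ifit2, Ifit3, Ifit3b, Usp18), oligoadenylate synthetases (Oas1a, Oas2, Oas3, Oasl1, Oasl2), Mx and other antiviral effectors (Mx1, Rsad2, Cmpk2, Bst2, Isg20, Rtp4, Xaf1, Ifi27l2a, Ifi35, Ifi44, Trim30a, Parp14), nucleic acid sensors (Ddx58, Dhx58, Zbp1, Ifi203, Ifi204), transcription factors (Irf1, Irf7, Irf9, Stat2), guanylate-binding proteins (Gbp2, Gbp3, Gbp4, Gbp7) and immunity-related GTPases (Igtp, Irgm1, Iigp1, Ifi47).

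The 22 libraries were 10x Genomics 3′ libraries from mice that carried Prom1-CreERT2 and Rosa26ZSG, the wt groups included. Tamoxifen activates this recombinase only where Prom1 is transcribed, and cells that recombined, with their descendants, carry ZsGreen. Het mice also carried the Nalcn-het allele and null mice Nalcn-null, Nalcn being a sodium leak channel. Non-tumour circulating ZsGreen-positive cells (ntCZC), sorted from peripheral blood, made up 10 libraries (2 wt, 4 het, 4 null) from mice aged 551 to 649 days. By their labels, tissue libraries pooled kidney, liver, lung and stomach with epididymis (males) or uterus (females), and 9 had a group (5 wt, 2 het, 2 null; 551 to 654 days). Peripheral blood mononuclear cells (PBMC) gave 1 library, from a wt male aged 120 days. The genotype in the title and in the strain label differed for 2 further tissue libraries, aged 610 and 647 days, which entered no comparison. No label named an animal, so n counts libraries, and p-values measure the spread between libraries, which may in part be technical.

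Type I interferons signal through Ifnar1 and Ifnar2 to the kinases Jak1 and Tyk2, and a complex that contains Stat2 and Irf9 then binds the interferon-stimulated response element in target promoters. Interferon gamma, made mainly by T and NK cells, signals through Ifngr1 and Ifngr2 and acts on promoters with the gamma-activated sequence. The first route is best known for the IFIT, OAS and Mx genes, which block viral RNA and protein synthesis, and the second for Irf1, the guanylate-binding proteins and the immunity-related GTPases, which attack the vacuoles of intracellular pathogens. Many members answer to both.

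Promoters are shown because they carry the element the list is known for. RefSeq gave 250 bases before and 50 bases after the start of 29 members (GRCm38.p6). The core of the response element was read, on either strand, as GAAA, any 2 bases and GAAA again, and was in 17 of these 29 (58.6%) and in 3.99% of the 27025 genes of the same table. The longer form with CT after the second GAAA, which overlaps it, was in 11 (37.9%, against 0.303% of genes). TTCNNNGAA, the letters of the gamma-activated sequence, were in 8 (27.6%, against 9.55%). By role, the core was in 4 of 5 ISG15 and IFIT effectors, 3 of 3 guanylate-binding proteins, 2 of 4 oligoadenylate synthetases and 1 of 4 transcription factors. In the 16 members with a match before the start, the match nearest to the start lay 14 to 222 bases away (median 62.5). The 200 bases before the start of 6 members follow, 5′ to 3′ on the gene's strand, with matches in capitals (the core or its reverse complement, and TTCNNNGAA for Irf1). Isg15 lies on the minus strand of chr4:156200819-156201018, Ifit3 on the plus strand of chr19:34583329-34583528, Rsad2 on the minus strand of chr12:26456453-26456652, Bst2 on the minus strand of chr8:71537473-71537672, Gbp2 on the plus strand of chr3:142620463-142620662 and Irf1 on the plus strand of chr11:53769814-53770013.
Isg15: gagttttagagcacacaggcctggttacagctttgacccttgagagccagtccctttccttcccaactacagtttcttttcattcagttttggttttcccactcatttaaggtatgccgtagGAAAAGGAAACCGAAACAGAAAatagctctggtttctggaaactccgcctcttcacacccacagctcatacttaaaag
Ifit3: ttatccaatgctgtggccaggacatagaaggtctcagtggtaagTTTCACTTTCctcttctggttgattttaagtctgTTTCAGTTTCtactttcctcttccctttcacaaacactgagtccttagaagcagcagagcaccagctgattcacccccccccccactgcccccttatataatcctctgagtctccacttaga
Rsad2: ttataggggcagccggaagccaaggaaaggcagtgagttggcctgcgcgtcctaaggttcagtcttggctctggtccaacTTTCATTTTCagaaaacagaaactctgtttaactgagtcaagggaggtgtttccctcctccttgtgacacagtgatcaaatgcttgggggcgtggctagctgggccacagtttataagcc
Bst2: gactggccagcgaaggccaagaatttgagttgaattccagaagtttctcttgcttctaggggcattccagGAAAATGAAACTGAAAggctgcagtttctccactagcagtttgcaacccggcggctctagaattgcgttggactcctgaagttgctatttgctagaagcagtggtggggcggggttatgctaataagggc
Gbp2: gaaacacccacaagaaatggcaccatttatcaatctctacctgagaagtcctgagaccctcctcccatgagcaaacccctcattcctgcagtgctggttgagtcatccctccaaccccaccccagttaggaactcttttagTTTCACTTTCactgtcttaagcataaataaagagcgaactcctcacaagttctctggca
Irf1: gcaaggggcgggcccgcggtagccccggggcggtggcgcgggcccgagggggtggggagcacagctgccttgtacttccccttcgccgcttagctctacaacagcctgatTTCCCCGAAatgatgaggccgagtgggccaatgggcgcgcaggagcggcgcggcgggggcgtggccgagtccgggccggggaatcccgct
Isg15 held 3 overlapping matches between 78 and 66 bases before its start, Ifit3 held matches at 156 and 122 bases and Bst2 at 130 and 124 bases, whereas Rsad2 and Gbp2 held 1 each. The promoter windows of Irf7 and Oasl2 held no match to the core. A match of letters is a description and not a binding site.

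Total UMIs ranged from 161541 to 2600526 in the ntCZC libraries and from 8571019 to 139793927 in the tissue libraries, and levels are given as CPM, the UMIs of a gene divided by the total UMIs and scaled to 1e6. After filtering, 2109 ntCZC, 60905 tissue and 679 PBMC barcodes remained, and libraries shared at most 2.6% of their barcodes. Cells were classed by marker genes, none of which was a member, and a class name such as endothelial-like means that markers were detected. Of the ntCZC barcodes, 46.9% were nonclassical monocyte-like, against 1.66% of the tissue barcodes, in which endothelial-like cells were the largest class (15.9%). Nalcn had 0 UMIs in every ntCZC library and at most 0.386 CPM in tissue, so its 3′ tags could not check the genotype labels. Tissue null replicate 3, labelled female, held both Xist (1347 CPM) and Y-linked transcripts (31.2 CPM), and 575 epididymal-like cells although its label lists uterus (594 in the male null replicate 2). Where sex was a covariate, it was the labelled sex. The ntCZC wt replicate 3 had 11 barcodes that passed, with 73.5% of its UMIs from haemoglobin genes. Tissue wt replicate 2 stood apart for the members themselves, as did the second library without a group (2326 CPM summed, against 759 to 1445 CPM in the other 8 grouped tissue libraries). The main results that rest on tissue wt replicate 2 are given with and without it.

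Across all barcodes, the summed level of the 40 members was 2036 ± 683 CPM in ntCZC (SD, n = 10; 786 to 3250) and 1222 ± 642 CPM in tissue (SD, n = 9; 759 to 2829). Tissue wt replicate 2 was the highest tissue library, and without it the tissue sum was 1021 ± 237 CPM (n = 8, highest 1445). Over the barcodes that met the limits on genes and mitochondrial UMIs, before doublets were removed, the sums were 2462 ± 669.8 CPM in ntCZC (1733 to 4125) and 1778 ± 809 CPM in tissue (1537 ± 386 without tissue wt replicate 2). Of the libraries lowest over all barcodes, ntCZC wt replicate 3 then moved from 786 to 2562 CPM and tissue wt replicate 1 from 759 to 1383 CPM. The PBMC library held 1537 CPM. The sums are over 3′ tags and were led by a few abundant members. Among these was Ifi27l2a, with a median of 615.9 CPM in ntCZC and 67.2 CPM in tissue, so the difference between the sums was not spread evenly over the members.

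**Figure D1:**
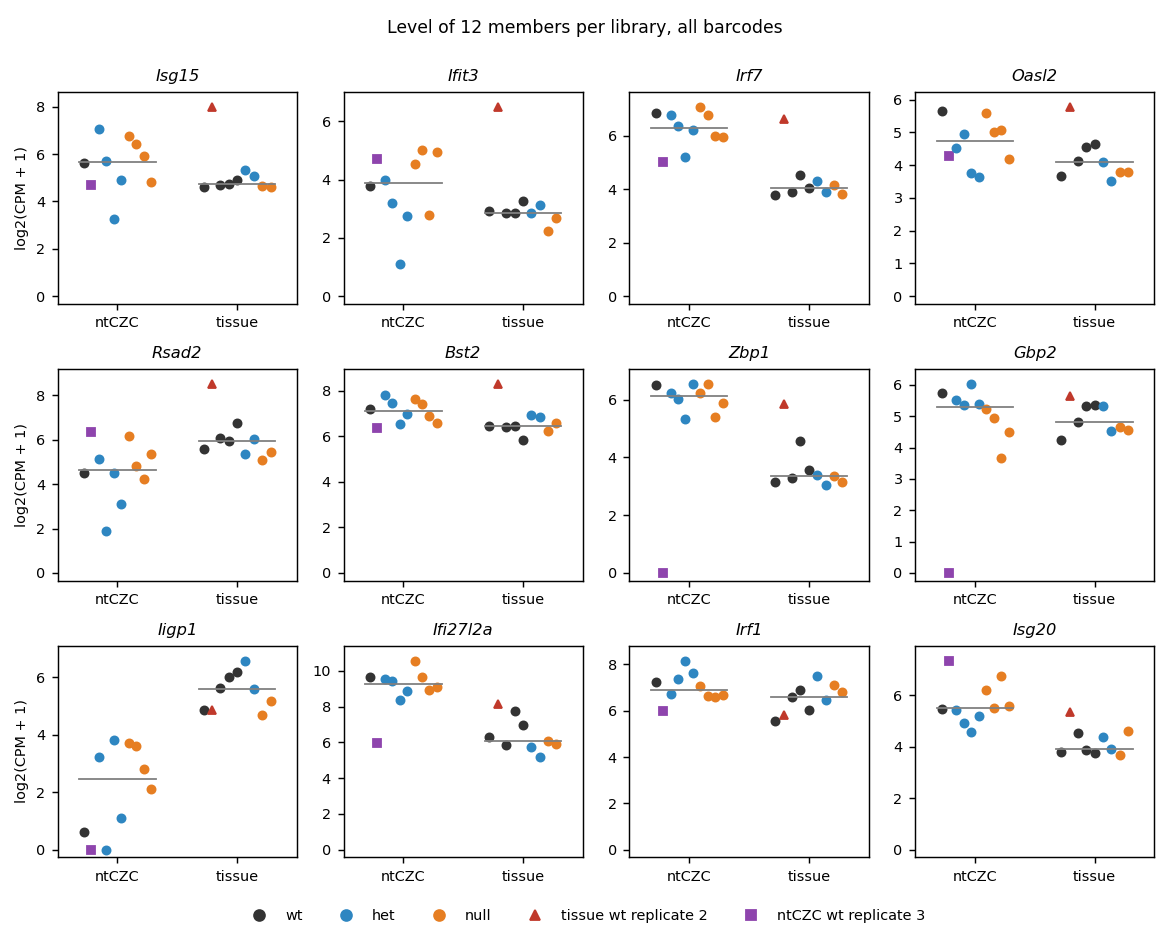
Level of 12 members, as log2(CPM + 1), in each ntCZC and tissue library, all barcodes, with 1 point for each library coloured by genotype and a line at the group's median. Ifi27l2a and Irf7 lie higher in most ntCZC libraries than in most tissue libraries, Iigp1 lies lower in all of them, and tissue wt replicate 2 (triangle) stands above the other tissue libraries for Isg15, Ifit3, Irf7, Oasl2, Rsad2 and Bst2.

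Ifi27l2a, a small interferon-induced protein, had 807 and 61.9 CPM in ntCZC wt replicates 1 and 3, 744, 692, 327 and 471 CPM in het replicates 1 to 4, and 1516, 820.4, 493.5 and 539.9 CPM in null replicates 1 to 4. In tissue it had 76.9, 279.6, 57.5, 211 and 122 CPM in wt replicates 1 to 5, 53.0 and 35.6 CPM in het replicates 1 and 2, and 67.2 and 59.7 CPM in null replicates 2 and 3. The groups overlapped only through ntCZC wt replicate 3, the shallow library rich in haemoglobin. Iigp1, a GTPase of the vacuole-attacking family, had 0.531 and 0 CPM in ntCZC wt, 8.40, 0, 13.1 and 1.15 CPM in het and 12.1, 11.3, 5.91 and 3.34 CPM in null. Every tissue library was above all of these, at 28.3, 27.9, 48.5, 62.9 and 71.3 CPM in wt, 93.9 and 47.5 CPM in het and 24.8 and 34.9 CPM in null. Isg15, the ubiquitin-like modifier, had 48.3 and 24.8 CPM in ntCZC wt, 131, 51.2, 8.55 and 29.2 CPM in het and 108, 84.0, 59.1 and 27.3 CPM in null. In tissue it had 23.1, 252, 24.5, 25.7 and 29.3 CPM in wt, 39.0 and 32.6 CPM in het and 23.9 and 23.3 CPM in null. Isg15 overlapped widely between ntCZC and tissue.

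The other fixed members are given by lowest, median and highest library. Isg20 was at 22.8, 44.1 and 161 CPM in ntCZC and 11.7, 14.2 and 40.1 CPM in tissue. Bst2, which holds budding virus at the cell surface, was at 80.5, 135 and 223 CPM in ntCZC and 56.0, 87.0 and 312 CPM in tissue. Both had higher medians in ntCZC, with overlap. Irf1 was at 61.9, 119 and 284 CPM in ntCZC and 46.6, 96.7 and 179 CPM in tissue. Oasl2, of the OAS family, was at 11.5, 25.8 and 49.4 CPM in ntCZC and 10.4, 16.0 and 53.6 CPM in tissue. Gbp2 was at 0, 38.4 and 64.4 CPM in ntCZC and 18.1, 27.1 and 48.5 CPM in tissue, its 0 being ntCZC wt replicate 3. The groups overlapped for these 3 genes. Rsad2 had the lower median in ntCZC, at 2.69, 24.3 and 80.5 CPM in ntCZC and 32.9, 59.6 and 365 CPM in tissue. In the PBMC library from the younger mouse, Ifi27l2a was at 262 CPM, Irf1 at 98.4 CPM, Bst2 at 55.5 CPM, Zbp1 at 26.7 CPM, Isg15 at 18.3 CPM, Irf7 at 13.4 CPM and Iigp1 at 4.92 CPM, and this library entered no test.

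Whether ntCZC differed from tissue was tested with edgeR's quasi-likelihood test on summed counts, adjusted over all genes (Benjamini-Hochberg). Of 39 members tested, 13 were higher and 6 lower in ntCZC, where 28.5% of all 10681 genes were called higher and 36% lower. The median log2 difference was 0.35 over the members and −0.081 over all genes. Zbp1, a sensor of Z-form nucleic acid, was higher (log2 difference 2.02, SE 0.39, adjusted p = 0.00014), as were Ifi27l2a (2.51, SE 0.42) and Irf7, the factor that amplifies type I interferon transcription (1.76, SE 0.39). Ifi35, Dhx58, Gbp3, Oas1a, Oas2, Isg20, Irf9, Ifi47, Xaf1 and Ifi204 were also called higher, by 0.45 to 2.18 on the log2 scale. The lower members were Ifi44 (−3.96, SE 0.58), Iigp1 (−3.15, SE 0.45), Gbp4 (−1.78, SE 0.35), Ifit1 (−1.78, SE 0.54), Rsad2, the radical SAM enzyme viperin (−1.63, SE 0.61, adjusted p = 0.0236), and Gbp7 (−0.78, SE 0.25). Isg15 (0.28, SE 0.54), Ifit3 (0.18, SE 0.69), Oasl2 (0.35, SE 0.36), Bst2 (0.38, SE 0.27), Gbp2 (0.13, SE 0.25) and Irf1 (0.44, SE 0.24) did not pass, with adjusted p from 0.108 to 0.846. In these sums over all barcodes, fewer cells of a type and less RNA per cell cannot be told apart. With RLE scaling, which moved the median of all genes to −0.298, 9 members were higher and 6 lower (20.6% and 44.3% of genes), and 31.7% of all calls were higher against 44.1%. Without tissue wt replicate 2, 22 members were higher and 5 lower (28.2% and 35.5% of 10527 genes): Isg15 (1.01) and Ifit3 (1.21) then passed, and Rsad2 no longer did (−1.06, adjusted p = 0.0525).

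Only Ifi44 and Iigp1 did not overlap at all between the 10 ntCZC and 9 tissue libraries, both lower in ntCZC, where 18.7% of 13857 genes lay wholly below and 0.548% wholly above. Ifi44, a cytoplasmic antiviral protein, was between 0 and 11.4 CPM in ntCZC (median 0) and between 12.2 and 29.2 CPM in tissue (median 21.9). Zbp1 reached 92.3 CPM in ntCZC, with a lowest value of 0 in 1 library, and 7.16 to 56.6 CPM in tissue (median 9.19). Irf7 was 31.0 to 133 CPM (median 76.7) against 12.8 to 97.8 CPM (median 15.5). With ntCZC wt replicate 3 and tissue wt replicate 2 set aside, a choice made after seeing the data, Ifi27l2a, Ifi35, Irf7, Oas1a, Zbp1 and Dhx58 also lay wholly above tissue (7.13% of genes above, 19.8% below).

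**Figure D2:**
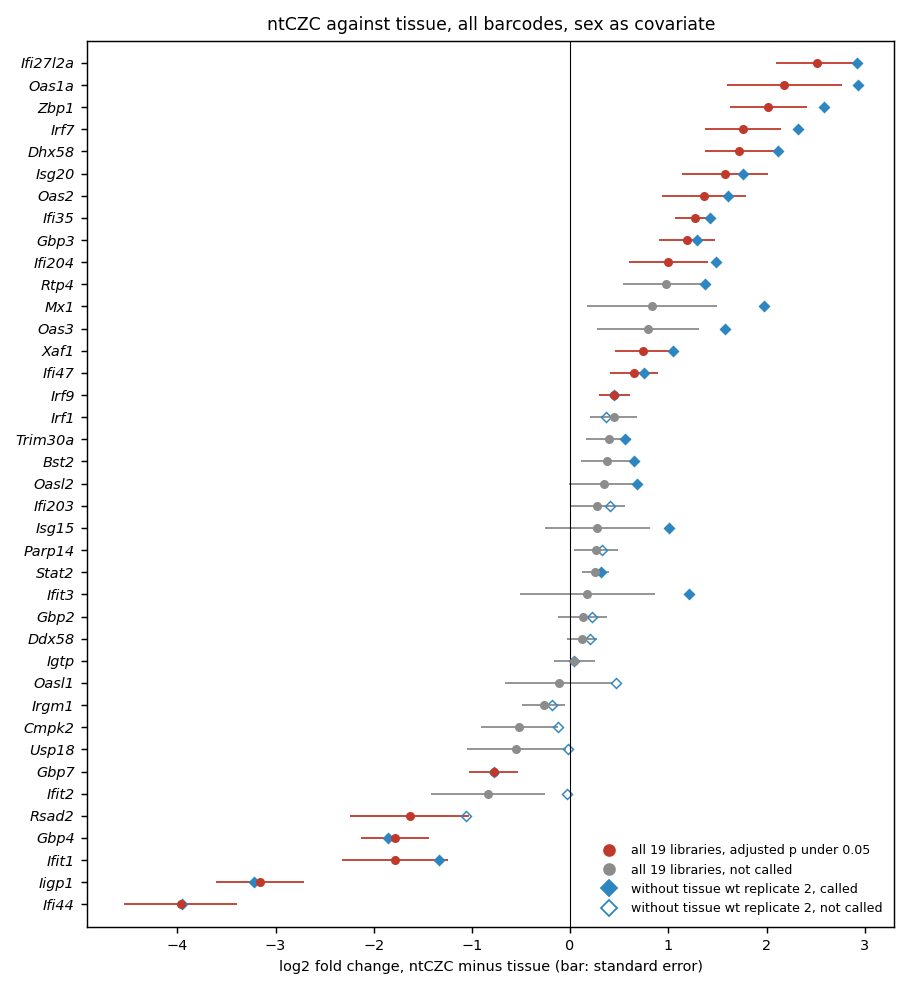
Log2 difference between ntCZC and tissue (positive where ntCZC was higher) for each of 39 members, all barcodes, with bars for the SE, and beside it the value without tissue wt replicate 2 (diamonds). The values run from −3.96 (Ifi44) to 2.51 (Ifi27l2a), and Isg15, Ifit3 and Mx1 are among those that move up when that library is left out.

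Of the interferon pathway around the members, 7 of 13 receptor and JAK-STAT genes were higher in ntCZC and 0 lower, among them Ifngr1 (2.15), Ifnar2 (1.93) and Irf2 (1.45). The counts of this and the next lists stand against 28.5% of all genes higher and 36% lower (20.6% and 44.3% with RLE scaling), and nothing particular to a list is read from them. Of 14 nucleic acid sensing genes, 6 were higher, including Irf5 (2.74) and Tlr7 (2.18), and 2 lower, Tlr3 (−2.93) and Mavs (−1.20). A further list of interferon-induced genes gave 13 higher and 5 lower of 34 tested, with Psmb8 (1.94), an immunoproteasome subunit, and Epsti1 (2.13) among the higher. The ligands were scarcely sampled: of 21, only Ifng could be tested (−1.51, adjusted p = 0.0183). Ifnb1 had 45 UMIs over the tissue libraries and 0 over ntCZC, and Ifng had 2891 and 45. Every tissue library held more total UMIs than any ntCZC library, so these raw counts are not compared as levels. The 0 for Ifnb1 is not read as absence. Dissociation and stress genes, which respond to cell isolation, moved as well, with 6 of 12 lower (Hspa1b, −5.25) and 2 higher, and their part in the members' differences was not tested.

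Within the nonclassical monocyte-like class, present with at least 20 cells in 7 ntCZC and 8 tissue libraries, 3 of 10 members tested were higher in ntCZC and 0 lower (15.7% and 20.7% of 3645 genes). Zbp1 had 103, 158, 81.0, 108, 163, 86.9 and 90.3 CPM in the ntCZC libraries. In tissue it had 31.9, 41.5, 53.6, 59.5, 75.5, 33.9, 0 and 51.2 CPM, so the groups did not overlap (log2 difference 0.92, SE 0.23, adjusted p = 0.0041). The share of all genes that did not overlap in this class is not given here, so nothing particular to Zbp1 is read from the gap. Ifi27l2a had 596, 930.2, 1146, 457, 2835, 510.2 and 681 CPM against 398, 555, 286, 768, 234, 327, 164 and 319 CPM, with some overlap (0.95, SE 0.29, adjusted p = 0.0149). Ifi35 was 43.4 to 84.9 CPM against 23.9 to 65.5 CPM (0.59, SE 0.21, adjusted p = 0.0345). Irf7 (0.09, adjusted p = 0.790) and Bst2 (0.08, adjusted p = 0.839), which had log2 differences of 1.76 and 0.38 over all barcodes, did not pass here. Without ntCZC null replicate 1, whose Ifi27l2a was the highest, only Zbp1 of 17 members tested passed (12.5% of genes higher and 17.7% lower). Haemoglobin transcripts were 0 to 125 CPM in these ntCZC cells and 79.0 to 2866 CPM in the tissue cells, and their part was not tested. The receptors Ifngr1 (0.96) and Ifnar2 (0.71) were higher in ntCZC, whereas Ifnar1 (−0.68) and the feedback inhibitor Socs3 (−1.18) were lower.

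In B cell-like cells (6 ntCZC and 8 tissue libraries), 2 of 11 members were higher and 0 lower (16.8% and 18.9% of 5094 genes). Ifi35 had 47.7, 156, 67.5, 62.7, 74.0 and 62.9 CPM in ntCZC and 20.6 to 48.1 CPM in tissue (1.27, SE 0.27, adjusted p = 0.00188). The 2 groups touched only at the lowest ntCZC library. Gbp3, a guanylate-binding protein, was 14.8 to 69.4 CPM against 7.94 to 32.2 CPM (1.18, SE 0.36, adjusted p = 0.0164). With same-numbered libraries as a block, Ifi35 and Gbp3 no longer passed, and Bst2 and Ifi27l2a were called instead. The share of genes called in that fit is not given here. Ifi27l2a (0.85, adjusted p = 0.0565) and Bst2 (0.62, adjusted p = 0.253) passed once tissue wt replicate 2 was left out, which raised the count to 4 (18.1% of genes higher). Haemoglobin transcripts also differed in this class, at 0 to 126 CPM in ntCZC and 125 to 3488 CPM in tissue.

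Among tissue classes with 3 or more libraries, the members had the highest mean summed level in endothelial-like cells. Their summed level was 4115 ± 753 CPM there (SD, n = 9; 3110.4 to 5637), 2707 ± 1785 CPM in classical monocyte-like cells (n = 8), 2359.8 ± 1371 CPM in C1q macrophage-like cells (n = 9), 2248 ± 478 CPM in mesothelial-like cells (n = 6) and 2029 ± 1060 CPM in fibroblast-like cells (n = 8). From classical monocyte-like cells down, neighbours among these 5 classes differed by less than their SD, and the ranges of all of them but mesothelial-like cells reached into that of endothelial-like cells, fibroblast-like cells only through tissue wt replicate 2. Neutrophil-like (1869.7 ± 833), T cell-like (1697 ± 763), NK cell-like (1557 ± 1255) and nonclassical monocyte-like cells (1508 ± 682) followed, with B cell-like cells at 993 ± 454 CPM. Without tissue wt replicate 2 the means were 4153 ± 796 CPM in endothelial-like, 2384 ± 384 in mesothelial-like, 2117 ± 679 in classical monocyte-like, 1958 ± 701 in C1q macrophage-like, 1681 ± 424 in fibroblast-like and 1093 ± 285 in NK cell-like cells, so mesothelial-like cells then ranked next to endothelial-like cells. Alveolar macrophage-like cells (525 ± 118) and kidney proximal tubule-like cells (385 ± 326) were the lowest of the classes with 8 libraries. Among ntCZC classes with 3 or more libraries, the sum ran from 1111 ± 222 CPM in B cell-like cells (n = 6) over 2308 ± 1033 in nonclassical monocyte-like cells (n = 7) to 3781 ± 423 CPM in classical monocyte-like cells (n = 3).

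**Figure D3:**
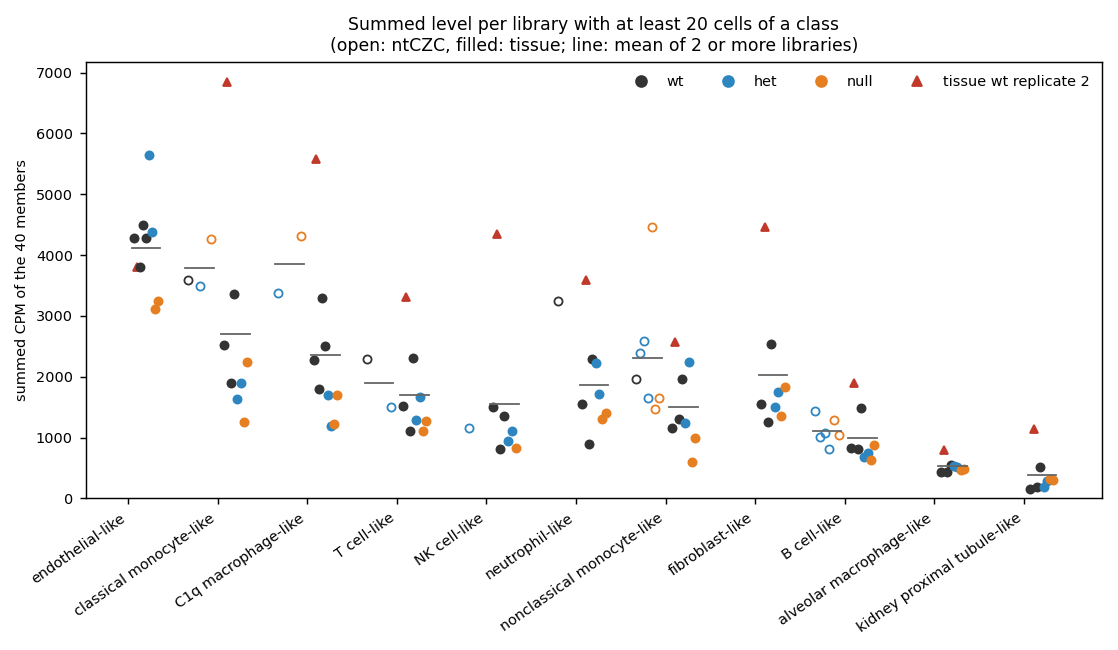
Summed CPM of the 40 members by marker class, with 1 point for each library of at least 20 cells (open for ntCZC, filled for tissue) and a line at the mean. Endothelial-like cells lie between 3110.4 and 5637 CPM, with tissue wt replicate 2 (triangle) inside that range, whereas it is the highest tissue point in the other classes drawn.

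Each of 9 tissue classes was compared with the mean of the others in a single edgeR fit with the library as a block. In this fit, 36 members and 10036 genes were tested. Classical monocyte-like, mesothelial-like and alveolar macrophage-like cells, among other classes, were not in it, so no class was compared with them. In endothelial-like cells, 29 members were higher and 4 lower, against 35.9% and 31% of all genes, with a median log2 difference of 1.39 over the members and 0.013 over all genes. All 5 ISG15 and IFIT effectors, all 4 guanylate-binding proteins and all 4 immunity-related GTPases tested were called higher. With no library block, the direction of Ifit3 reversed. Ifi44 had 238, 168, 149, 186 and 194 CPM in the endothelial-like cells of wt replicates 1 to 5, 117 and 222 CPM in het and 92.3 and 93.2 CPM in null (log2 difference 4.69, SE 0.20, adjusted p = 1.49e-32). It was the only member whose highest class did not overlap the next, mesothelial-like cells at 25.5 ± 20.5 CPM (n = 6). The share of all genes that separated in the same way is not given here, so nothing particular to Ifi44 is read from this. Rsad2 had 487, 525, 457, 389 and 491 CPM in wt, 223 and 537 CPM in het and 228 and 206 CPM in null (3.86, SE 0.24). Iigp1 had 317, 151, 298, 362 and 327 CPM in wt, 652 and 339 CPM in het and 188 and 206 CPM in null (3.78, SE 0.22). Tissue wt replicate 2 was within the range of the other libraries for Ifi44 and Rsad2 and below all of them for Iigp1. Irf1, a factor induced by interferon gamma, was 207 to 1005 CPM (2.23, SE 0.13), Bst2, the tethering protein tetherin, gave 2.22 (SE 0.14), and Gbp4 gave 2.49 (SE 0.17). Isg15 was at 76.8 to 161 CPM and was also higher (1.33, SE 0.27). The 4 lower members were Oas3 (−2.90, SE 0.39), Mx1 (−1.97, SE 0.33), Ifi27l2a (−1.82, SE 0.30) and Zbp1 (−1.10), and Irf7 did not pass (0.29, adjusted p = 0.146). Dissociation and stress genes were also higher in this class, 9 of 12 with 0 lower (Hspb1 3.75, Egr1 2.22, Jun 1.66), and their part was not tested.

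C1q macrophage-like cells had 26 members higher and 0 lower, against 29.3% and 24% of genes. All 5 ISG15 and IFIT effectors tested and all 3 oligoadenylate synthetases tested were called higher, and 0 of 4 immunity-related GTPases. Oas1a, an enzyme that makes the activator of RNase L, had 19.2, 67.4, 7.70, 27.7 and 8.55 CPM in wt, 18.9 and 14.1 CPM in het and 14.6 and 3.88 CPM in null (2.57, SE 0.25, adjusted p = 3.16e-14). Its highest value was in wt replicate 2. Mx1 (2.30, SE 0.27), Ifi204, a cytosolic DNA sensor (2.09, SE 0.27), Bst2 (2.04, SE 0.15) and Oasl2 (1.69, SE 0.22) were higher too, whereas Iigp1 (0.41, adjusted p = 0.279), Irf1 (−0.34) and Isg20 (−0.72) did not pass. With RLE scaling 24 were higher, and Irf1 and Isg20 became lower (25.3% of genes higher and 28.7% lower). Without tissue wt replicate 2, 22 members were called, 21 of them higher (28.6% of genes higher and 17.6% lower).

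Neutrophil-like cells had 11 members higher and 2 lower (23.4% and 20.9% of genes). Isg15 had 323, 496, 64.6 and 263 CPM in wt replicates 1 to 4, 515 and 421 CPM in het and 287 and 198 CPM in null (3.75, SE 0.27, adjusted p = 5.52e-20). Isg20, an RNA exonuclease, had 157, 134, 64.6 and 101 CPM in wt, 142 and 153 CPM in het and 37.1 and 194 CPM in null (3.87, SE 0.25). These cells had the highest mean of both genes among the classes. Oas3 (3.63, SE 0.33) and Oasl2 (2.49, SE 0.26) were also higher, Bst2 was lower (−0.51, SE 0.22), and 0 of 4 immunity-related GTPases passed.

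T cell-like cells had 10 members higher and 2 lower (25.7% and 23% of genes), with Gbp4 (1.95, SE 0.20) and Igtp (1.61, SE 0.18) highest and Ifi204 (−1.78) and Rsad2 (−1.32) lower. NK cell-like cells had 3 higher, Gbp4 (1.58), Ifi47 (0.99) and Gbp7 (0.85), and 4 lower, Ifi27l2a (−2.52), Isg20 (−2.50), Oasl2 (−2.28) and Bst2 (−0.90), against 8.36% and 13.5% of genes. The ligand Ifng was itself higher in T cell-like (4.96) and NK cell-like cells (5.10). B cell-like cells had 1 higher, Ifi203 (0.47), and 21 lower (26.8% and 25.3% of genes). The lower ones included all 5 ISG15 and IFIT effectors tested (Isg15, −1.80, SE 0.38) and Rsad2 (−2.18, SE 0.42). With RLE scaling the members gave 8 higher and 5 lower in T cell-like cells (37.5% of all calls higher, against 52.8%), 3 and 3 in NK cell-like cells (48.5% against 38.2%) and 0 and 24 in B cell-like cells (40.3% against 51.5%). Without the library block fewer members passed, 11 in B cell-like (46.2% of genes in either direction), 7 in T cell-like (42.9%) and 2 in NK cell-like cells (19.9%), and with at least 4 markers 12 passed in B cell-like (46%) and 3 in NK cell-like cells (14.9%). In NK cell-like cells, 3 members passed without tissue het replicate 1 (14.8% of genes) and 4 without het replicate 2 (share of genes not given).

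Nonclassical monocyte-like cells of tissue had 5 members higher, Ifi27l2a (1.56), Ifi204 (1.55), Zbp1 (1.37), Irf7 (1.24) and Oas3, and 7 lower, led by Iigp1 (−2.74) and Ifi44 (−2.27), against 18.2% and 19.1% of genes. Fibroblast-like cells had 9 higher, among them Ifi204 (2.68, SE 0.31), Iigp1 (2.62, SE 0.29), Irf1 (1.33) and Ifi27l2a, and 4 lower, Oas3 (−1.85), Rsad2 (−1.21), Gbp4 (−0.93) and Irf7 (−0.77), against 26.7% and 24.9%. Kidney proximal tubule-like cells had 0 higher and 33 lower (35.2% and 34.8%), with Gbp3 (−3.15, SE 0.33), Ifi27l2a (−2.89) and Isg15 (−2.73) furthest down, and Iigp1 (−0.67, adjusted p = 0.115) did not pass. RLE scaling gave 5 and 10 members in nonclassical monocyte-like cells (34.5% of all calls higher, against 48.7%), 12 and 1 in fibroblast-like cells (64.1% against 51.7%) and 0 and 33 in proximal tubule-like cells (61.5% against 50.3%). In fibroblast-like cells, 5 members passed without the library block (47.7% of genes in either direction) and 8 without tissue het replicate 1 (45.6%). Plasmacytoid dendritic cell-like cells, which are known as strong interferon producers, reached 20 cells in 1 library only (40 cells, 7746 CPM summed) and were not tested.

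**Figure D4:**
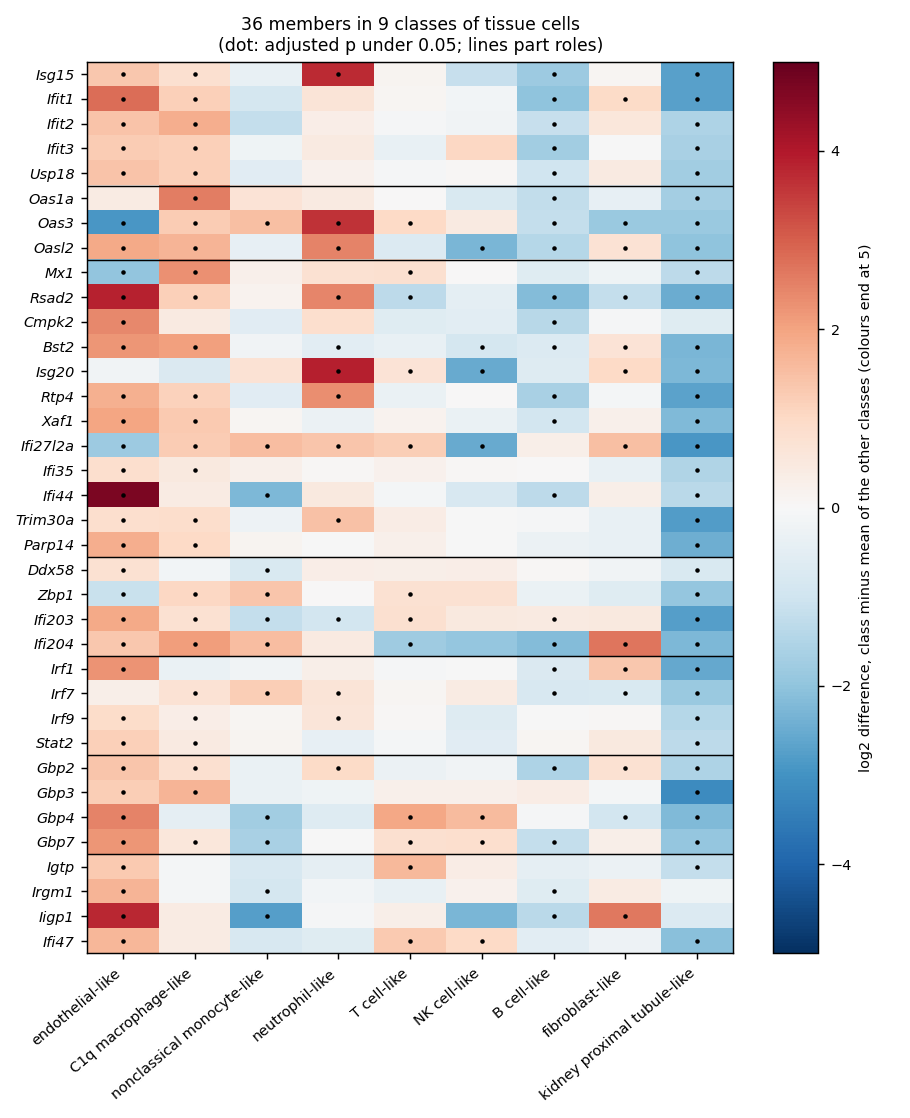
Log2 difference of each member (rows, by role) between a tissue class (columns) and the mean of the other classes in the same edgeR fit. Colour gives the sign and size, and dots mark adjusted p under 0.05. Endothelial-like cells show 29 members higher and 4 lower, and proximal tubule-like cells 33 lower.

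A cell-level measure was the share of barcodes with at least 5 members detected, taken after each barcode was thinned to 1000 UMIs. This share was 6.01% ± 2.87 in ntCZC (SD, n = 9; 1.51% to 12.1%) and 7.79% ± 3.93 in tissue (SD, n = 9; 1.79% to 14.4%), so the groups overlapped. Unthinned shares were 50.1% and 24.99%, and 146 ntCZC and 10906 tissue barcodes were too shallow to be thinned. Endothelial-like cells had the highest share among the tissue classes tested above, 24.4% ± 9.55 (n = 9; 11.7% to 42.3%). C1q macrophage-like cells had 9.65%, or 7.37% without tissue wt replicate 2, which held 27.9%. The share was 3.99% in T cell-like, 3.60% in neutrophil-like, 2.33% in nonclassical monocyte-like and 1.03% in B cell-like cells. No class is known to lack all members, so none gave a background level for free RNA, and alveolar macrophage-like cells had the lowest of the shares given here, 0.178%. In ntCZC, nonclassical monocyte-like cells held 2.74% ± 2.63 (n = 7).

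The design also allowed the members to be compared between libraries labelled wt, het and null. The paper describes the Nalcn allele as conditional, so it is lost only in cells that recombined. Tissue cells were not sorted for ZsGreen, and which of them had lost Nalcn was not measured. No member passed in any of the 11 genotype comparisons with the main setting of edgeR, nor with DESeq2, so counts at an unadjusted p under 0.05 are given. That count of 0 depends on the filter on low counts: with no filter, 2 to 22 members were called in 8 of the 11 comparisons, most of them in C1q macrophage-like (22), B cell-like (14) and T cell-like cells (11) of tissue. All of these 3 classes' called members were lower in het and null, where 0.512%, 0.929% and 1.16% of genes were called lower. The share of genes is not given for the other comparisons, and nothing is read from their counts. The tissue fits with no filter held tissue wt replicate 2 and were not repeated without it. With a replicate block, 1 member passed in tissue B cell-like and 1 in tissue T cell-like cells, again with no share of genes given. Between ntCZC null and het over all barcodes, 10 of 39 members were under an unadjusted p of 0.05, against 7.31% of genes. Of the 39 differences, 33 were positive (median 0.64, against 0.004 over all genes). Ifit1 had the smallest p (2.70, SE 0.56, adjusted p = 0.337). Ifit3, whose reads may be split with its near-identical neighbour Ifit3b, had 22.1, 31.4, 5.91 and 30.1 CPM in null and 14.7, 8.08, 1.14 and 5.77 CPM in het (2.61, adjusted p = 0.407). Isg15 gave 1.57 (adjusted p = 0.773) and Irf1 −0.83 (adjusted p = 0.568). Haemoglobin took 25.2%, 32.4% and 25.3% of the UMIs in null replicates 1, 3 and 4, and its part was not tested. By label these null libraries were female and null replicate 2 was male. Of the ntCZC het libraries only replicate 3 was female, so genotype and sex were partly confounded. Within nonclassical monocyte-like cells most differences had the opposite sign: 4 of 30 differences were positive (median −0.59), with 1 under an unadjusted p of 0.05 (2.6% of genes). For ntCZC het and null against wt, 1 of 39 was under it (5.47% of genes), Isg20 (−2.13), whose highest value was in the shallow wt replicate 3, and 0.0107% of 9379 genes passed adjustment (1 gene, lower).

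In tissue, het and null libraries were compared with wt in 8 classes. By label the het libraries were all male, whereas wt and null held both sexes. C1q macrophage-like cells had 26 of 37 members under an unadjusted p of 0.05, where 3.54% of genes were, and all 37 differences were negative (median −1.20). Without tissue wt replicate 2, 10 of 35 were under it (8.66% of genes), 2 were positive and the median was −0.72. Oasl2 had 62.0, 112, 53.6, 79.7 and 38.5 CPM in wt, 29.4 and 17.3 CPM in het and 22.8 and 27.2 CPM in null (−1.66, SE 0.37, adjusted p = 0.9998). Irf7 had 39.1, 215, 51.7, 67.6 and 27.8 CPM in wt, 25.2 and 14.1 CPM in het and 22.8 and 17.5 CPM in null (−2.24). The wt values of both genes lay above all 4 others. The share of all genes that separated in the same way is not given here, so nothing particular to Oasl2 and Irf7 is read from this. Without wt replicate 2 their differences were −1.29 and −1.23, with no adjusted p under 0.570. Rsad2 moved from −3.39 to −1.20 and Isg15 from −2.09 to −0.26 when that library was left out. Bst2 (−0.35) and Irf1 (−0.004) were closest to 0 among the genes given here.

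Endothelial-like cells had 13 of 39 members under an unadjusted p of 0.05 (6.51% of genes), 6 of 38 without tissue wt replicate 2 (4.69%). The differences were −1.66 for Ifi27l2a, −1.04 for Zbp1, −0.73 for Ifit3, −0.67 for Rsad2 and 1.02 for Irf1, none passing adjustment. T cell-like cells had 11 of 34 (6.69%), and 0 of 27 (5.43%) without that library, and B cell-like cells 7 of 23 (7.73%), or 3 of 17 (5.44%) without it. Fibroblast-like cells had 3 of 16 (5.06%), neutrophil-like cells 2 of 20 (3.53%, with 0.024% of genes passing adjustment), NK cell-like cells 1 of 11 (3.64%) and nonclassical monocyte-like cells 1 of 13 (4.96%). Without tissue wt replicate 2 these became 1 of 11 (5.78%), 3 of 17 (3.48%), 0 of 3 (6.45%) and 1 of 9 (5.92%). Each contrast set the mean of het and null against wt, so opposite differences in het and null would cancel. In endothelial-like cells the summed level was 3795 to 4487 CPM in wt, 4385 to 5637 CPM in het and 3110 to 3249 CPM in null. Het and null were not tested apart in tissue.

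Tissue wt replicate 2, a male aged 571 days and the deepest library, was above all 8 other tissue libraries for 30 of 40 members, where 14.5% of 14411 genes were and 5.72% lay below. Mx1, a dynamin-like GTPase that blocks influenza virus, had 34.0 CPM against 1.16 to 5.09 CPM, 16.3 times the median of the others. Ifit3 had 88.5 against 3.76 to 8.63 CPM (14.2 times), Isg15 251.7 against 23.1 to 39.0 CPM (10.0 times) and Rsad2 365 against 32.9 to 105 CPM (6.85 times). All 6 ISG15 and IFIT effectors and all 5 oligoadenylate synthetases stood above every other library, against 2 of 4 guanylate-binding proteins and 1 of 4 immunity-related GTPases. Irf1 (54.6 against 46.6 to 179 CPM) and Iigp1 (27.9 against 24.8 to 93.9 CPM) lay within the range of the others, and Gbp4 lay below it (13.8 against 14.3 to 55.7 CPM). Of the further interferon-induced genes 17 of 36 were above all others, of the receptor and JAK-STAT genes 4 of 14, and of the stress genes 1 of 12.

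The pattern was found in many classes of this library, counted over genes with a mean of at least 1 CPM. The members above all other libraries numbered 33 of 40 in fibroblast-like (9.86% of genes), 32 of 40 in classical monocyte-like (8.32%), 26 of 39 in NK cell-like (14.9%), 25 of 39 in proximal tubule-like (9.96%), 25 of 40 in T cell-like (10.8%), 24 of 40 in B cell-like (10.5%), 23 of 40 in C1q macrophage-like (9.32%), 20 of 40 in neutrophil-like (10.2%) and 12 of 39 in nonclassical monocyte-like cells (8.84%). Endothelial-like cells had 8 of 40 members above all others and 7 below (10.5% and 3.55% of genes), and their Rsad2 level of 525 CPM lay within 206 to 537 CPM. The summed level in its mesothelial-like cells was the lowest of 6 libraries (1569.6 CPM, against 1885 to 2937 CPM), and in its airway-like cells it lay within the range of the others (656 CPM, against 589.9 to 1081 CPM). Isg15 reached 561 CPM in its C1q macrophage-like, 400.0 CPM in its fibroblast-like, 273 CPM in its T cell-like and 101 CPM in its proximal tubule-like cells. C1q transcripts were at 298 CPM in its T cell-like and 137 CPM in its endothelial-like cells, against 4301 CPM in its C1q macrophage-like cells, and the part of RNA from other cells was not tested. Members were detected together: 674 of 1304 C1q macrophage-like cells (51.7%) held an Isg15 UMI, and 75.7% of these held Rsad2, against 16.5% of those without Isg15. Mx1 was found in 46.4% and 3.97%, whereas Irf1 was found in 30.6% and 22.4%. Cells with and without Isg15 were not matched for depth here, and its part was not tested.

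The second tissue library without a group, which entered no test, lay above the same 8 libraries for 33 of 40 members. The share of all genes that did so is not given here, so nothing particular to the members is read from this count. Dissociation and stress genes of this library summed to 8519 CPM, the highest of the 22 libraries (3028 to 6172 CPM in the grouped tissue libraries, 4210 CPM in tissue wt replicate 2), and their part was not tested. Its Isg15 level was 105 CPM (against 23.1 to 39.0 CPM), Irf7 was at 46.6 CPM (against 12.8 to 21.8 CPM) and Ifit3 was at 14.8 CPM (against 3.76 to 8.63 CPM), all below tissue wt replicate 2. Rsad2, at 62.0 CPM, lay within the range of the 8, and Irf1, at 207 CPM, lay above them, which tissue wt replicate 2 did not. Its summed level was higher than that of tissue wt replicate 2 in B cell-like (2879.6 against 1899 CPM), T cell-like (3821 against 3313 CPM) and neutrophil-like cells (4728 against 3586 CPM), and lower in C1q macrophage-like cells (4502 against 5570.4 CPM).

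**Figure D5:**
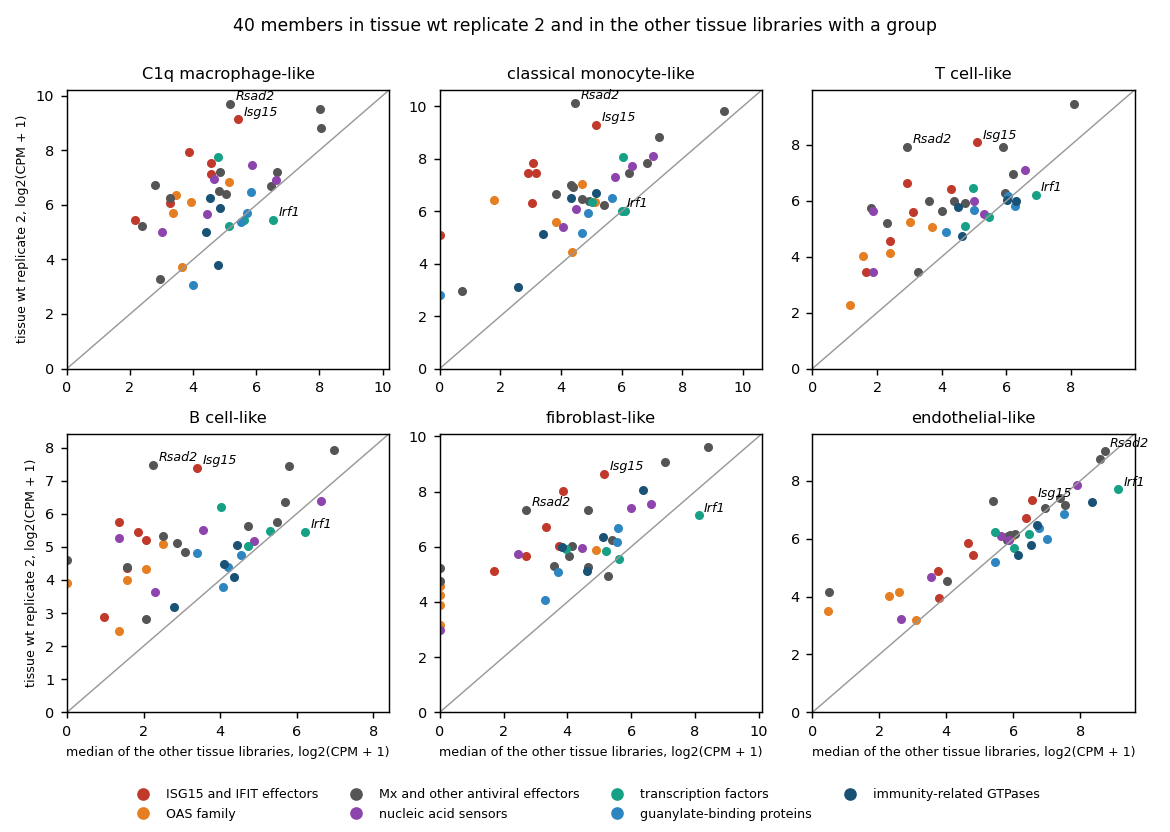
Level of the 40 members, as log2(CPM + 1), in tissue wt replicate 2 (vertical axis) against the median of the other tissue libraries (horizontal axis) in 6 classes, coloured by role, with a line where both are equal. Isg15 and Rsad2 lie far above the line in C1q macrophage-like, classical monocyte-like, T cell-like, B cell-like and fibroblast-like cells and near it in endothelial-like cells, and Irf1 lies on or below it in most panels.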

How the data were processed

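The authors aligned 10x Genomics reads to mm10 with Cell Ranger (2.1.1 per the labels, 3.0.2 per the file headers) and deposited UMI counts per gene and barcode, which were used as deposited. The deposited hashtag counts, with no organ named for each barcode, were not used. Barcodes were kept where 200 or more genes were detected and mitochondrial UMIs made up no more than 25%, and Scrublet doublets were removed from the tissue libraries (0.8% expected per 1000 barcodes, at most 25%). A cell was classed where at least 3 markers of 1 of 29 classes were above the tissue mean, and dropped as mixed where another class reached 0.75 of its score. Counts were summed by library, and by class where a library held at least 20 cells, and tested with edgeR 4.0.16 (R 4.3.3; quasi-likelihood, TMM, filterByExpr, sex as covariate; adjusted p under 0.05 over all genes tested). Class comparisons had the library as a block in place of sex. Members tested are those that passed filterByExpr, which a gene can pass through the group where it is high. The edgeR and thinning steps were tested on simulated data. Library totals set the precision, and 3′ UMI counts are not scaled to length, so levels are not compared between genes. Scanpy 1.11.5, scipy 1.17.1 and DESeq2 1.42.0 were also used. Alternatives were RLE scaling, DESeq2, no filter, a replicate block, all or passing barcodes, at least 4 markers, other share settings and leaving out each library. Per comparison the called members with the largest log2 difference (up to 25) and 12 fixed members may be named, with up to 6 called genes of each other list. The 41 members, the lists and the tests were chosen with earlier results of these data known. Genomic positions are RefSeq GRCm38.p6.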

Additional observations from a re-analysis of the deposited data

Results flagged for a closer look

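In all, 42 sets of values were tested for a library far from the others of its group (groups of 4 or 5 libraries), and chance flags about 1 in 20 of such sets. Tissue wt replicate 2 was such a library among the 5 tissue wt libraries for 6 of the 12 fixed members: Isg15 (251.67 CPM), Ifit3 (88.5 CPM), Irf7 (97.8 CPM), Oasl2 (53.6 CPM), Rsad2 (365 CPM) and Bst2 (312 CPM). Over all 40 members the count was 16, and members that move together are not independent of each other. Among ntCZC null libraries, Irf1 was highest in replicate 1, at 135 CPM, against 94.6 to 101 CPM in the other 3.

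The second tissue library without a group, a female aged 647 days, entered no comparison. Its levels lay above every tissue wt library for Gbp2 (59.5 CPM), Iigp1 (79.7 CPM), Ifi27l2a (412 CPM) and Irf1 (207 CPM). With tissue wt replicate 2 set aside, it lay above all 8 other grouped tissue libraries for 33 of 40 members. No share of all genes stands beside this count, and nothing particular to the members is read from it. The difference was not tested.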

How the results depend on the processing

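Replicate numbers were not used to pair the libraries in the main tests. The correlation of same-numbered ntCZC and tissue libraries was −0.047 to 0.026, and no set of pairs lay over 0.1 throughout. Sorted blood cells and pooled organs hold different mixes of cells, so a low correlation cannot tell whether a pair came from 1 animal. Of the 6 ntCZC and tissue pairs, 4 had the same age in days and all had the same labelled sex. No label says that they came from 1 animal. With a replicate block the count of members called became 1 in tissue B cell-like and 1 in tissue T cell-like cells for het and null against wt. In ntCZC against tissue it gave, over the 12 libraries of the pairs, 22 members higher and 4 lower over all barcodes (15.1% and 37.5% of 14058 genes), losing Ifit1 and Rsad2. The B cell-like call changed from Ifi35 and Gbp3 to Bst2 and Ifi27l2a under the replicate block. No share of all genes is given for this fit or for the tissue fits with a replicate block. Nothing particular to the members is read from their counts. Class comparisons had the library as their block, and with no such block (no replicate block) the class counts were 11 in B cell-like, 7 in T cell-like, 2 in NK cell-like and 5 in fibroblast-like cells, and Ifit3 in endothelial-like cells reversed to −0.12. With no filter on low counts, members called numbered 12 in nonclassical monocyte-like and 11 in B cell-like cells of ntCZC against tissue, 2 in ntCZC null against het, and, for tissue het and null against wt, 14 in B cell-like, 11 in T cell-like, 22 in C1q macrophage-like, 2 in nonclassical monocyte-like, 4 in neutrophil-like, 3 in endothelial-like and 8 in fibroblast-like cells. Of these counts with no filter, only the C1q macrophage-like, B cell-like and T cell-like ones of tissue have a share of all genes beside them above. Nothing particular to the members is read from the others. With at least 4 markers the class counts were 12 in B cell-like and 3 in NK cell-like cells. The causes were not tested. The share of barcodes was 2.01% in ntCZC and 2.36% in tissue at 500 UMIs, 50.1% and 24.99% with no thinning, 21.8% and 20.7% with at least 3 members and 1.81% and 2.18% with at least 8. The longer form of the response element core was in 11 promoters and TTCCNGGAA in 3.

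With each library left out in turn, members called ranged from 15 to 27 in ntCZC against tissue over all barcodes, 1 to 4 in nonclassical monocyte-like cells (1 without ntCZC null replicate 1), 2 to 4 in B cell-like cells (4 without tissue wt replicate 2) and 0 to 1 in ntCZC het and null against wt (1 without ntCZC wt replicate 1). They stayed at 0 in the other genotype comparisons. The class counts were 9 to 14 in nonclassical monocyte-like, 22 to 28 in C1q macrophage-like, 18 to 22 in B cell-like, 10 to 13 in T cell-like, 3 to 7 in NK cell-like (3 without tissue het replicate 1, 4 without het replicate 2), 12 to 16 in neutrophil-like, 32 to 33 in endothelial-like, 8 to 15 in fibroblast-like (8 without tissue het replicate 1) and 29 to 35 in proximal tubule-like cells. The share of all genes called in the same fits is not given beside these ranges, so nothing particular to the members is read from them. The mean summed level stayed within 1901 to 2175 CPM in ntCZC and 1021 to 1280 CPM in tissue. Of single-gene values, 5281 kept their side of the threshold, 242 fell below it and 79 passed it. In 1, the direction reversed and the gene passed in at least 1 of the 2 fits. Changes of direction where neither fit passed are counted among the 5281. In the smallest library (161541 UMIs), 1 UMI of a member is several CPM.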
